A study of Homo sapiens with 8 samples.

Results

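Capan-1 is an epithelial cell line grown from a liver metastasis of a pancreatic ductal adenocarcinoma, and its response to siRNA against the transcription factor HOXB7 is described here across genes and processes. The members are the 4 Capan-1 arrays of the 8 in the series, chosen by cell line: 2 from cells harvested 48 h after transfection with 10 nM HOXB7 siRNA, and 2 from parental cells. The methods call the parental cells untreated, and none of the arrays analysed here is labelled with a control siRNA, so the siRNA, the lipid reagent and the double-stranded RNA itself cannot be told apart on these arrays, and no label says which duplex was used. The other 4 arrays hold the same pair of groups in MIA PaCa-2, a line from a primary pancreatic tumour, and entered the fit for the spread. The labels name no engineered allele. By the study's methods the work was done in duplicate, with nothing said of separate cultures for the arrays, so p-values measure the spread between these samples, which may be technical.

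HOXB7 belongs to the HOXB cluster of homeobox genes, which set regional identity along the body axis in development and bind DNA together with PBX and MEIS proteins. An siRNA is a short RNA duplex that the Argonaute protein AGO2 uses to find and cut a matching mRNA. Cells also carry sensors of double-stranded RNA, among them RIG-I (RIGI), MDA5 (IFIH1) and TLR3, which switch on interferons, and interferons in turn induce a set of antiviral genes through a DNA element called the interferon-stimulated response element.

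Each array was read in 1 colour, and a level is the log2 signal of a probe minus the 75th percentile of its array. Between 70.7% and 73.2% of spots stood well above background on the 4 Capan-1 arrays, and no spot was saturated. The level was tested for 23376 probes of 18886 genes whose signal was well above background throughout at least 1 of the 2 Capan-1 groups. All 12 ductal epithelial markers were well above background on all 4 arrays, with a summed level (log2) between 10.4 and 10.5. So were 11 of 14 leukocyte markers, whose summed level was far lower, between 0.59 and 0.68. Of 10 fibroblast markers, 6 were above background on none. Of 6 acinar markers 4 were above background on none. Their summed level, 3.61 and 3.48 with siRNA against 2.91 and 2.85 in parental cells, was nearly that of PRSS1 (trypsinogen) alone. PRSS1 read 3.59 and 3.46 against 2.89 and 2.83, higher by 0.67. The siRNA arrays held positions 1 and 2 of their slide and the parental arrays positions 3 and 4, so position and treatment cannot be told apart, nor can slide and cell line.

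The target itself was lower. The HOXB7 probe, at chr17:44039988-44040047 of the hg18 build, read -5.26 and -4.80 with siRNA against -2.48 and -2.34 in parental cells. The groups did not overlap, and the siRNA mean was below the parental mean by 2.62 on the log2 scale (SE 0.257, n = 2 per group), which is 6.13-fold. With the normexp background correction the difference was -0.66 (adjusted p = 0.0437). Of 137 genes followed through the alternative settings, 55 had a difference smaller by over 1.5 times with that correction. In limma the unadjusted p was 4.35e-05 and the adjusted p, by Benjamini-Hochberg over all probes, was 0.0892, so HOXB7 did not pass the threshold of 0.05. By PCR the study reported significantly less HOXB7 mRNA in treated Capan-1, with no effect of scrambled siRNA. By western blot it reported less HOXB7 protein. An exact permutation test of 2 arrays against 2 cannot give a two-sided p below 0.33.

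Of 18886 genes tested by limma, 0 were lower and 1 was higher at an adjusted p under 0.05, which is 0% and 0.00529%. At an unadjusted p under 0.05 there were 1537 genes lower (8.14%) and 1351 higher (7.15%), and for each of these the siRNA arrays lay on 1 side of the parental arrays. A rule from the study's methods compares each probe with the spread between parental arrays of probes of like brightness. It asks for at least 2 probes per gene, signal in most of them and full agreement in direction. The methods state neither its window nor its scaling, so these were set here and the counts are not the study's own. It called 0 genes lower and 10 higher, CXCL10, IFIT2, CCL3L3 and AKR1B10 among them. The study's own lists for treated Capan-1 held genes in both directions, more of them upregulated, and each list was longer than here. Directions here are relative to the 75th percentile of each array: with no scaling between arrays the nominal counts were 1552 lower and 221 higher, and when arrays were set to their spike-in probes 5445 lower and 45 higher, because these moved the median of all probes by -0.16 and -0.40. With spike-in scaling, 24 of the 78 followed genes that lay above 0 in the reported fit lay below 0 before that shift was taken off. In the following, "nominally" higher or lower means an unadjusted limma p under 0.05, and its background is the 7.15% or 8.14% just given. Counts of list members above or below 0 have as background 9518 genes above 0 and 9368 below, of the 18886 tested. Nominal list counts include genes tested only through the group where they were above background, CXCL9, HOXB8, IFNB1 and LIG4 among them.

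The gene past the threshold was CCL3, a chemokine (MIP-1 alpha) that draws monocytes and lymphocytes. Its probe, at chr17:31439718-31439777 of hg18, read 1.80 and 2.05 with siRNA against -0.21 and -0.37 in parental cells. CCL3 rose by 2.21 on the log2 scale (SE 0.118), 4.63-fold, with a limma adjusted p of 0.0266. The call did not survive leaving out either Capan-1 parental array (adjusted p = 0.0638 and 0.108) or any MIA PaCa-2 array (0.0672 to 0.127), while the log2 fold change stayed between 2.09 and 2.34. CCL3L3, a near-identical copy of CCL3, was measured by 2 probes, with log2 fold changes of 1.83 (adjusted p = 0.0998) and 1.30 (adjusted p = 0.0892), and the signal of the 2 genes may be shared by cross-hybridization.

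At a wider threshold, an adjusted p under 0.10 chosen after the values were seen, 15 genes were called, 5 lower (0.0265%) and 10 higher (0.0529%). The lower genes were HOXB7, MMS22L, TCAIM, DCP2 and SLC8A1. The higher genes were CCL3, CCL3L3, CCL5, CXCL10, IFIT1, IFIT3, OASL, RSAD2, CLDN18 and LOC100131532. Of these 10, 4 are chemokines and 4 are interferon-stimulated genes, lists with 29 and 41 tested members among the 18886 genes tested. CCL3 and CCL3L3 are counted separately, although their signal may be shared. LOC100131532 was above background on the siRNA arrays alone, at least 2.28-fold higher.

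**Figure D1:**
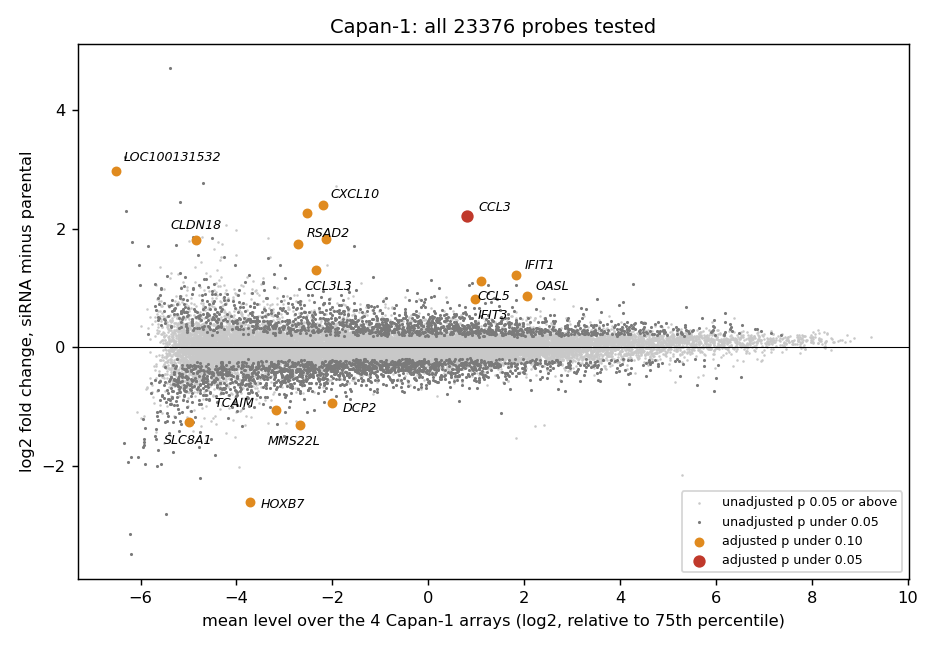
Log2 fold change (siRNA minus parental, vertical) of each of the 23376 probes tested against its mean level over the 4 Capan-1 arrays (horizontal). The single probe past an adjusted p of 0.05 is CCL3 at 2.21, and HOXB7 lies at -2.62 among the probes past 0.10; dim probes at the left scatter more widely than bright ones.

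**Figure D2:**
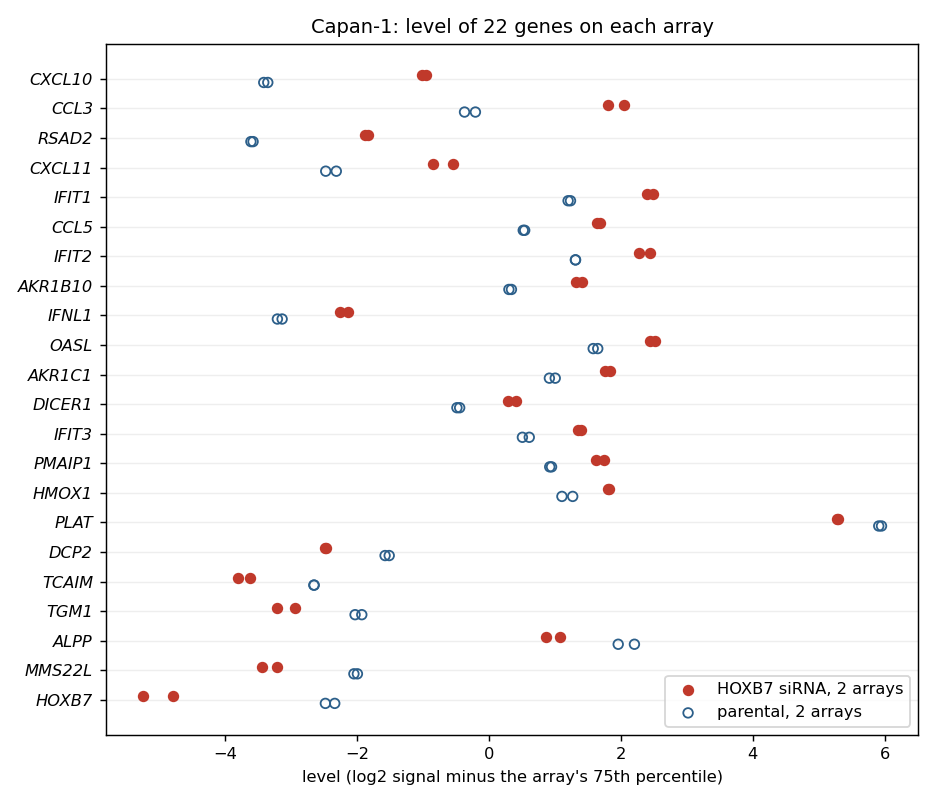
Level of 22 genes on each Capan-1 array, in log2 units relative to the array's 75th percentile, with filled points for HOXB7 siRNA and open points for parental cells. For every gene shown the 2 siRNA arrays lie on 1 side of the 2 parental arrays, which the choice of these genes fixed.

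Chemokines differed in both directions. Of 29 tested members of a list of 36 on the array, 9 were nominally higher (31.0%) and 4 nominally lower (13.8%), with a median log2 fold change of 0.01 beside 0.00 over all genes. The ligands of CXCR3, a receptor on activated T cells, were among the higher ones. CXCL10 read -1.01 and -0.96 with siRNA against -3.42 and -3.36 in parental cells, a log2 fold change of 2.40 (SE 0.195, adjusted p = 0.0831), and its other probe gave 2.26, while with normexp it was 1.30. CXCL11 read -0.85 and -0.55 against -2.48 and -2.32, a log2 fold change of 1.70 (SE 0.211, adjusted p = 0.108). CXCL9 was well above background on both siRNA arrays, at -3.42 and -3.22, and on neither parental array, so it was at least 6.56-fold higher.

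CCL5 and CCL4, of the same chemokine family, were on the same side as CCL3. CCL5 (RANTES) read 1.68 and 1.63 with siRNA against 0.54 and 0.52 in parental cells, a log2 fold change of 1.13 (SE 0.116, adjusted p = 0.0941). The 2 probes of CCL4 both gave 0.84, with unadjusted p-values of 0.000381 and 0.0318. The neutrophil chemokine CXCL8 differed less, by 0.29 (unadjusted p = 0.0342).

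The 4 chemokines that were nominally lower were CXCL14, CCL2, CCL17 and CCL20. CCL2 (MCP-1), a monocyte chemokine and among the brightest of the list, read 5.74 and 5.72 with siRNA against 6.23 and 6.28 in parental cells, a difference of -0.52 (SE 0.103, adjusted p = 0.188). CXCL14 differed by -0.80, CCL17 by -0.50 and CCL20, the CCR6 ligand, by -0.39.

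Interferon-stimulated effectors, the antiviral proteins that interferons induce, were mostly above 0. Of 41 tested members of 43, 30 lay above 0 and 11 below, 16 were nominally higher (39.0%) and 1, IFITM1, was nominally lower (2.44%). The median log2 fold change of the list was 0.20. RSAD2 (viperin), which blocks the replication of several viruses, read -1.83 and -1.89 with siRNA against -3.58 and -3.61 in parental cells, a log2 fold change of 1.74 (SE 0.141, adjusted p = 0.0831), which was 0.89 with normexp.

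The IFIT proteins bind viral RNA lacking host cap marks. IFIT1 read 2.39 and 2.48 against 1.20 and 1.23, a log2 fold change of 1.22 (SE 0.0849, adjusted p = 0.0646), the lowest adjusted p after CCL3. IFIT2 read 2.28 and 2.44 against 1.31 on both parental arrays, a log2 fold change of 1.05 (SE 0.133, adjusted p = 0.108). IFIT3 read 1.39 and 1.34 against 0.50 and 0.61, a log2 fold change of 0.81 (SE 0.0792, adjusted p = 0.0892).

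Several other effectors were nominally higher. OASL, which resembles the oligoadenylate synthetases and aids RIG-I, read 2.44 and 2.52 against 1.58 and 1.65, a log2 fold change of 0.87 (SE 0.0833, adjusted p = 0.0892). The ubiquitin-like modifier ISG15 had 0.77, the exonuclease ISG20 0.68, IFI44 0.66, the ISG15 ligase HERC5 0.59, IFI6 0.52 and the helicase DDX60 0.46, all nominally higher. GBP3, BST2, MX1 and DTX3L lay between 0.25 and 0.38, and HERC6 was counted through 1 of its probes. The oligoadenylate synthetases OAS1, OAS2 and OAS3, which are classical members of the same group, gave 0.20, -0.05 and -0.14 on their brightest probes and did not pass.

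**Figure D3:**
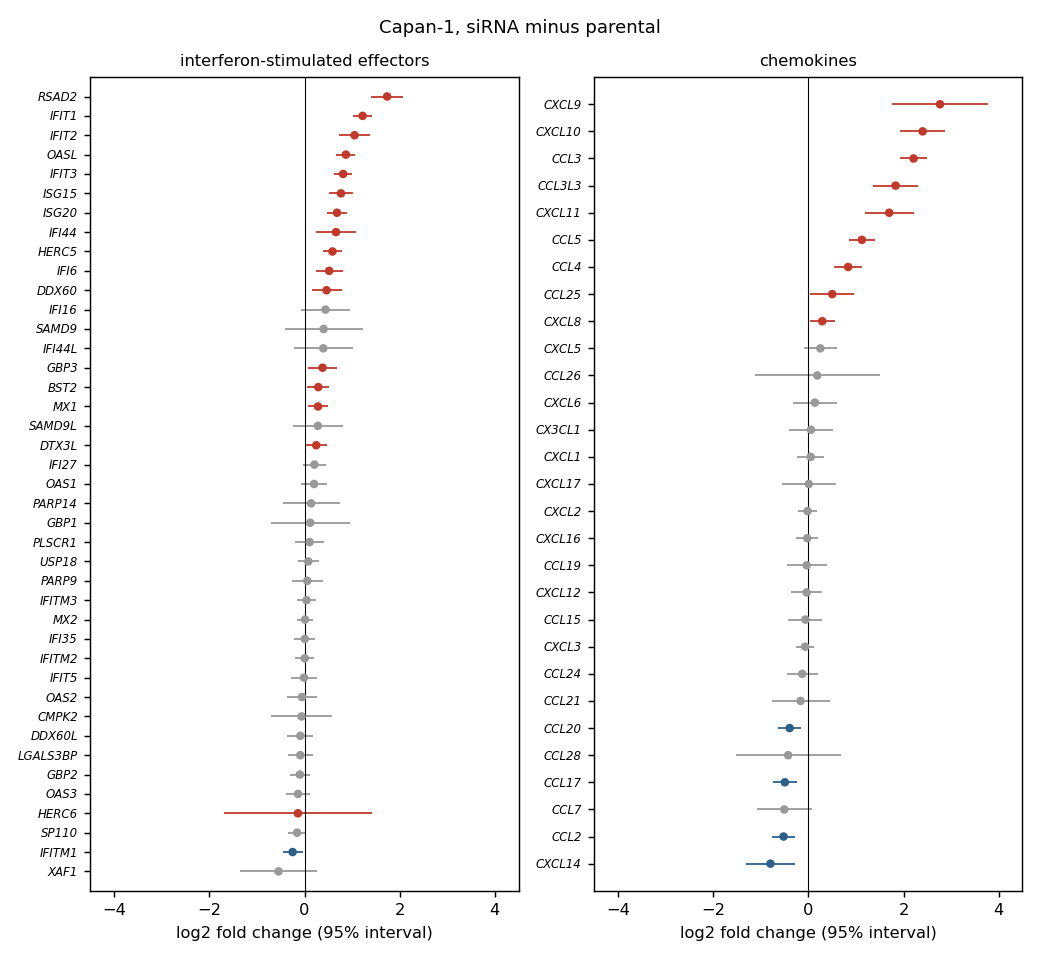
Log2 fold change with its 95% interval for every tested interferon-stimulated effector (left, 41 genes) and chemokine (right, 29 genes), each by its brightest probe, with red for nominally higher genes, blue for nominally lower and grey for the rest. RSAD2 at 1.74 and CXCL9 at 2.77 head the lists, and the lower end of the chemokines is CXCL14 at -0.80; HERC6 takes its colour from another probe.

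The response element of these genes can be read in their promoters. The letters GAAA, any 2 bases and GAAA again, or their reverse complement, were searched in the 250 bases before each gene start in RefSeq (GRCh38.p14, 35116 windows), and 3.02% of windows held them. Of 34 tested interferon-stimulated effectors with a window, 24 held the letters in at least 1 window (70.6%), against 3.47% of 12045 tested genes. Among the 14 nominally higher members with a window the count was 11 (78.6%). Among 7 nominally higher chemokines with a window it was 2, CXCL9 and CXCL10, and among all 22 tested chemokines with a window also 2 (9.09%). No window of CCL3 or CXCL11 held them, which says only that these letters are not in these windows. The windows of IFIT1, CXCL10, ISG15 and IFNL1 are shown as examples among the genes described here. They are written 5′ to 3′ on the coding strand and end at the base before the start, and capitals mark the matches.

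IFIT1, chr10:89392373-89392622, plus strand: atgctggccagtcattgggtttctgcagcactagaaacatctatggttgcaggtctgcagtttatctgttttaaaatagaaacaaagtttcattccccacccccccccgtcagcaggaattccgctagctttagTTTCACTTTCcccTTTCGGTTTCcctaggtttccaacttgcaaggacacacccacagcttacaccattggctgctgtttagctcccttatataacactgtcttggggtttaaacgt
CXCL10, chr4:76023498-76023747, minus strand: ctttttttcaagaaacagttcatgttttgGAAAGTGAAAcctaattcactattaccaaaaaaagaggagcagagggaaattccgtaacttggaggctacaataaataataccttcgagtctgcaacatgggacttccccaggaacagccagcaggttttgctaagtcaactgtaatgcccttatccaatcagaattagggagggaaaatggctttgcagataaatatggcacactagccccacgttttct
ISG15, chr1:1013247-1013496, plus strand: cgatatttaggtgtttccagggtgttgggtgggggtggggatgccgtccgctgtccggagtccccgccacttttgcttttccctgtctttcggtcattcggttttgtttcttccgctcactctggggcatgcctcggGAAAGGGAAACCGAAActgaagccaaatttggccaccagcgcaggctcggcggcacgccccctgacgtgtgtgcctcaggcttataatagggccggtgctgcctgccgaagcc
IFNL1, chr19:39296157-39296406, plus strand: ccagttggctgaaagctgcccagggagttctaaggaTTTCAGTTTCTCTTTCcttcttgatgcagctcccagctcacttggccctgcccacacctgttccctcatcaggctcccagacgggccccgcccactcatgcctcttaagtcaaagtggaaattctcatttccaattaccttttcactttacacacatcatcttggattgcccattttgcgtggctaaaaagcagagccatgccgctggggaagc

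IFIT1 held 2 matches, whose first bases lay 116 and 103 bases before the start, and CXCL10 held 1 match at 221 bases. In ISG15 and IFNL1 the 2 matches overlapped, as 3 GAAA blocks in a row, beginning 113 bases before the start in ISG15 and 214 bases in IFNL1, where they lie on the other strand, as do those of IFIT1.

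Of the interferons themselves, the lambda interferon IFNL1, which acts mainly on epithelia, read -2.14 and -2.26 with siRNA against -3.21 and -3.14 in parental cells. Its log2 fold change was 0.98 (SE 0.117, adjusted p = 0.108). IFNL2 gave 0.33 (unadjusted p = 0.0171). IFNB1 was dim: it was well above background on both parental arrays and on neither siRNA array, at least 1.99-fold lower, and with another background correction (normexp) its difference was 0.017. IRF9, the DNA-binding part of the complex that type I and lambda interferons activate, gave 0.70 (SE 0.152, adjusted p = 0.2), reading -0.81 and -0.62 against -1.63 and -1.21. Of the 22 tested interferons, receptors, IRF and STAT factors, 3 were nominally higher and 1 lower, and STAT2, IRF3 and IRF7 lay between -0.10 and 0.05.

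Sensors of double-stranded RNA were counted as a list of their own. Of 13 tested members, 5 were nominally higher (38.5%) and 1 lower (7.69%), with a median of 0.09. DHX58 (LGP2), a regulator of the RIG-I-like receptors, read 1.09 and 1.02 with siRNA against 0.61 and 0.38 in parental cells, a log2 fold change of 0.56 (SE 0.107, adjusted p = 0.18). The 2 probes of RIGI gave 0.49 and 0.42, IFIH1 gave 0.30, and the kinase TBK1, which phosphorylates IRF3, gave 0.29. ZC3HAV1 was higher by 0.45 on 1 probe and by 0.10 on the other, brighter one. ADAR, which edits and masks double-stranded RNA, was the member that was nominally lower, at -0.37, and TLR3 gave -0.20 and did not pass.

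The RNA interference machinery, which processes and uses small RNAs, lay above 0 for 11 of 13 genes. Of these 13 tested members, 4 were nominally higher (30.8%) and 0 lower, with a median of 0.16. DICER1, the nuclease that cuts small RNA precursors and Dicer-substrate siRNAs, read 0.29 and 0.41 with siRNA against -0.45 and -0.49 in parental cells, a log2 fold change of 0.82 (SE 0.104, adjusted p = 0.108). The silencing scaffold TNRC6A gave 0.52, the slicer AGO2 0.29 and TNRC6B 0.22, while DROSHA gave 0.04 and DGCR8 0.00.

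Within the HOXB cluster the target was not the only member below 0. Of 9 tested members, 8 lay below 0 and 5 were nominally lower (55.6%), HOXB7 among them, with a median of -0.23. That count also takes in HOXB8, tested through the parental group alone, and HOXB2, counted by its dimmer probe. HOXB8, the neighbour of HOXB7, was above background on the parental arrays alone, with a fitted difference of -1.26 (SE 0.306), which is no bound. HOXB5 read -0.41 and -0.52 with siRNA against 0.14 and 0.16 in parental cells, a difference of -0.61 (SE 0.0993, adjusted p = 0.145). HOXB2 differed by -0.55 on 1 probe and by -0.12 on its brighter one, and HOXB4 by -0.26, which became 0.014 with the normexp background correction. HOXB6 and HOXB9 gave -0.23 and -0.22 and HOXB13 gave 0.11, and none of these passed. Among the cofactors, PBX3 was nominally lower on 1 of 2 probes (-0.27), as 1 of 8 tested.

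Angiogenic genes that have been linked to HOXB7 were on the other side. Of 6 listed genes 4 were tested, all above 0, and 3 were nominally higher: VEGFA, the main endothelial growth factor, at 0.37 (0.14 on its other probe), the matrix protease MMP9 at 0.35 and CXCL8 at 0.29. Their adjusted p-values in limma were 0.346, 0.325 and 0.345.

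Genes lower beside HOXB7 included 3 that were lower in MIA PaCa-2 too. MMS22L, which helps repair stalled replication forks, read -3.22 and -3.45 with siRNA against -1.997 and -2.05 in parental cells, a difference of -1.31 (SE 0.115, adjusted p = 0.0892), yet its other, brighter probe gave -0.03. TCAIM, a mitochondrial protein, read -3.81 and -3.62 against -2.65 and -2.66, a difference of -1.06 (SE 0.0949, adjusted p = 0.0892), and its other probe gave 0.07. DCP2, the mRNA decapping enzyme, read -2.48 and -2.49 against -1.58 and -1.52, a difference of -0.94 (SE 0.101, adjusted p = 0.0998). With normexp MMS22L gave -0.52, TCAIM -0.28 and DCP2 -0.42. In MIA PaCa-2 the same 3 probes gave -1.41, -1.61 and -0.76, with adjusted p-values in limma of 0.0129, 0.0112 and 0.0271. SLC8A1, the sodium-calcium exchanger, rested on 1 siRNA array because the spot on the other was marked as an outlier, and with that spot kept it gave 2.22.

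Other lower genes past no threshold were ALPP, TGM1 and PLAT. ALPP, placental alkaline phosphatase, read 1.08 and 0.86 with siRNA against 1.96 and 2.20 in parental cells, a difference of -1.11 (SE 0.138, adjusted p = 0.108). TGM1, a transglutaminase of differentiated epithelium, read -3.21 and -2.94 against -2.03 and -1.93, a difference of -1.10 (SE 0.134, adjusted p = 0.108). PLAT, tissue plasminogen activator and a bright gene in this line, read 5.30 and 5.28 against 5.91 and 5.95, a difference of -0.64 (SE 0.0755, adjusted p = 0.108).

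The list of integrins and laminins held more lower than higher members. Of 30 tested, 7 were nominally lower (23.3%) and 2 higher (6.67%), with a median of -0.02. The lower ones included 4 beta chains: ITGB2 at -0.68, ITGB4 of the hemidesmosome at -0.56, ITGB7 at -0.47 and ITGB5 at -0.44. The higher ones were ITGB6 at 0.30 and ITGA6 at 0.33, and ITGB1, the common partner of many alpha chains, gave 0.48 (unadjusted p = 0.0652). ITGB4 read 1.79 and 1.88 with siRNA against 2.36 and 2.42 in parental cells, with an adjusted p of 0.138. The laminin chain LAMA5 gave -0.49.

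Proliferation genes held more members below 0 than above. Of 44 mitotic genes tested, 9 were nominally lower (20.5%), 0 were higher and 31 lay below 0, with a median of -0.09. Of 49 DNA replication genes, 39 lay below 0, with a median of -0.10. Of these genes 3 were nominally lower (6.12%, under the 8.14% of all genes) and 1 higher (2.04%). BIRC5 (survivin), of the chromosomal passenger complex, read 4.30 and 4.33 with siRNA against 4.65 and 4.59 in parental cells, a difference of -0.30 (SE 0.0822, adjusted p = 0.264). Other lower members were HMMR at -0.47, the spindle protein NUSAP1 at -0.36 and CENPF at -0.29, and in replication GINS1 at -0.48, the helicase subunit MCM2 at -0.43 and TYMS at -0.22. MKI67, the proliferation marker, gave -0.63, -0.33 and -0.06 on its 3 probes.

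Array RNA is given here for cell cycle and death regulators that the study measured by other means. By flow cytometry the study reported more BAX and BAD protein in treated Capan-1, with BCL-2 and cyclin D1 unchanged. Its PCR of RB1 and of an unnumbered E2F was in MIA PaCa-2. The adjusted p of each of the following was 0.24 or higher. RB1 read 1.71 and 1.74 with siRNA against 1.94 and 1.90 in parental cells, a difference of -0.20 (95% interval -0.42 to 0.02). The E2F factors, some of which RB1 restrains, lay between -0.38 for E2F4 and 0.33 for E2F7. E2F7 was nominally higher, as was E2F6 on its dimmest probe (0.30). Cyclin D1 (CCND1) gave -0.16 (interval -0.42 to 0.10). BAX, which opens the mitochondrial outer membrane, gave 0.05 (interval -0.17 to 0.28) and -0.21 on a dimmer probe, and its partner of the death pathway BAD gave -0.03 (interval -0.27 to 0.20). BCL2 was near background and read -1.83 and -5.28 on the siRNA arrays, which lie on both sides of the parental values of -4.99 and -5.16, so its difference of 1.51 rests on 1 array and is -0.21 without it.

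In the whole BCL2 family list, BAX, BAD and BCL2 included, 2 of 16 tested members were nominally higher (12.5%) and 1 lower (6.25%). PMAIP1 (NOXA), a BH3-only protein induced by p53 and by interferon signalling, read 1.63 and 1.75 with siRNA against 0.95 and 0.92 in parental cells, a log2 fold change of 0.76 (SE 0.104, adjusted p = 0.112). The survival gene BCL2L1 (BCL-XL) differed by -0.48 (adjusted p = 0.326). Of 26 p53 targets, 7 were nominally higher (26.9%) and 2 lower (7.69%), with a median of 0.09.

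Oxidoreductases of the AKR1 family and stress genes were on the higher side. Of 8 tested AKR1 genes, 4 were nominally higher and 0 lower, with a median of 0.28. AKR1B10, a retinal and aldehyde reductase, read 1.41 and 1.32 with siRNA against 0.30 and 0.34 in parental cells, a log2 fold change of 1.05 (SE 0.186, adjusted p = 0.165), and its other probe gave 1.08. AKR1B15, a close copy whose signal may be shared, gave 1.00. AKR1C1 read 1.75 and 1.83 against 1.00 and 0.91, a log2 fold change of 0.83 (SE 0.11, adjusted p = 0.108). Haem oxygenase HMOX1, an NRF2 target, gave 0.63 (SE 0.087, adjusted p = 0.112). Of 25 tested genes in the NRF2 list, HMOX1 and SLC7A11 were nominally higher (8.0%, beside 7.15% of all genes) and 0 were lower. That list did not hold AKR1B10 or AKR1C1.

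Of 30 genes of the unfolded protein and integrated stress responses, 11 were nominally higher (36.7%), 0 lower and 26 above 0, with a median of 0.15. They included VLDLR at 0.72, the mTOR inhibitor DDIT4 at 0.47, the chaperone DNAJB9 at 0.38 and the cystine transporter SLC7A11 at 0.30. DDIT4 read 2.64 and 2.69 with siRNA against 2.17 and 2.23 in parental cells (adjusted p = 0.145). Among 15 heat shock genes 2 were nominally higher (13.3%), and HSPA6 gave 0.56, 0.36 and 0.16 on its 3 probes.

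Large sets of bright housekeeping genes also lay above 0, and brightness moved with them. The median log2 fold change was 0.06 in the brightest of 5 equal groups of genes and between -0.03 and 0.00 in the other 4. All 32 proteasome genes were in the brightest group, and 29 lay above 0 with a median of 0.14 and 5 nominally higher (15.6%). Cytosolic ribosomal proteins (70 of 80 above 0, median 0.11, 79 in the brightest group), mitochondrial ribosomal proteins (66 of 77, median 0.11, 67 in that group) and oxidative phosphorylation (62 of 74, median 0.10, 74 in that group) did likewise, with 3.75%, 11.7% and 4.05% nominally higher. Histone genes had 63 of 71 above 0, a median of 0.17 and 14 nominally higher (19.7%), with 44 in the brightest group. The part of brightness in these medians was not tested.

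Growth factor and signalling genes were mixed. Of 10 tested members of the EGFR family and its ligands, 2 were nominally higher, the ligands EREG at 0.64 and AREG at 0.38. Of 23 MAPK feedback genes, 3 were nominally higher, among them DUSP1 at 0.62 and FOS at 0.34, and 5 were lower (21.7%), among them SPRY1 at -0.50. YAP and TEAD targets had 3 of 19 nominally lower (15.8%), among them CCN1 (CYR61), which read 3.98 and 3.90 against 4.38 and 4.41 (-0.45, adjusted p = 0.165), and ANKRD1, at -1.81 and above background on 1 siRNA array. NF-kB genes had 4 of 30 nominally higher (13.3%), with IL1A at 0.58, and 2 lower (6.67%), with TNFAIP2 at -0.51. In the list for epithelial-mesenchymal transition 3 of 25 were nominally higher, the repressor SNAI2 at 0.71 among them, and 0 lower, and the ductal factor SOX9 gave 0.79.

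For the remaining lists the nominal genes, higher and lower, were as follows: MHC class I and antigen processing (1 higher and 2 lower of 22 tested), caspases and IAP proteins (4 and 2 of 20, or 20.0% and 10.0%), cyclins, CDKs and inhibitors (2 and 1 of 17), RB proteins and E2F (2 and 0 of 13), break repair (2 and 2 of 21), cholesterol and fatty acid synthesis (2 and 1 of 34), Polycomb complexes (1 and 0 of 22), keratins (0 and 1 of 20), mucins, CEACAM and claudins (2 and 1 of 21), pancreatic transcription factors (1 and 0 of 21) and S100 proteins (1 and 1 of 16). Glycolysis and hypoxia genes had 5 higher (17.9%) and 0 lower of 28, and metalloproteases with the plasminogen system 5 (21.7%) and 2 (8.70%) of 23. CLDN18, a tight junction protein of stomach epithelium, was the member with the largest difference among claudins, at 1.80 (adjusted p = 0.0998), above background on both siRNA arrays and 1 parental array.

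**Figure D4:**
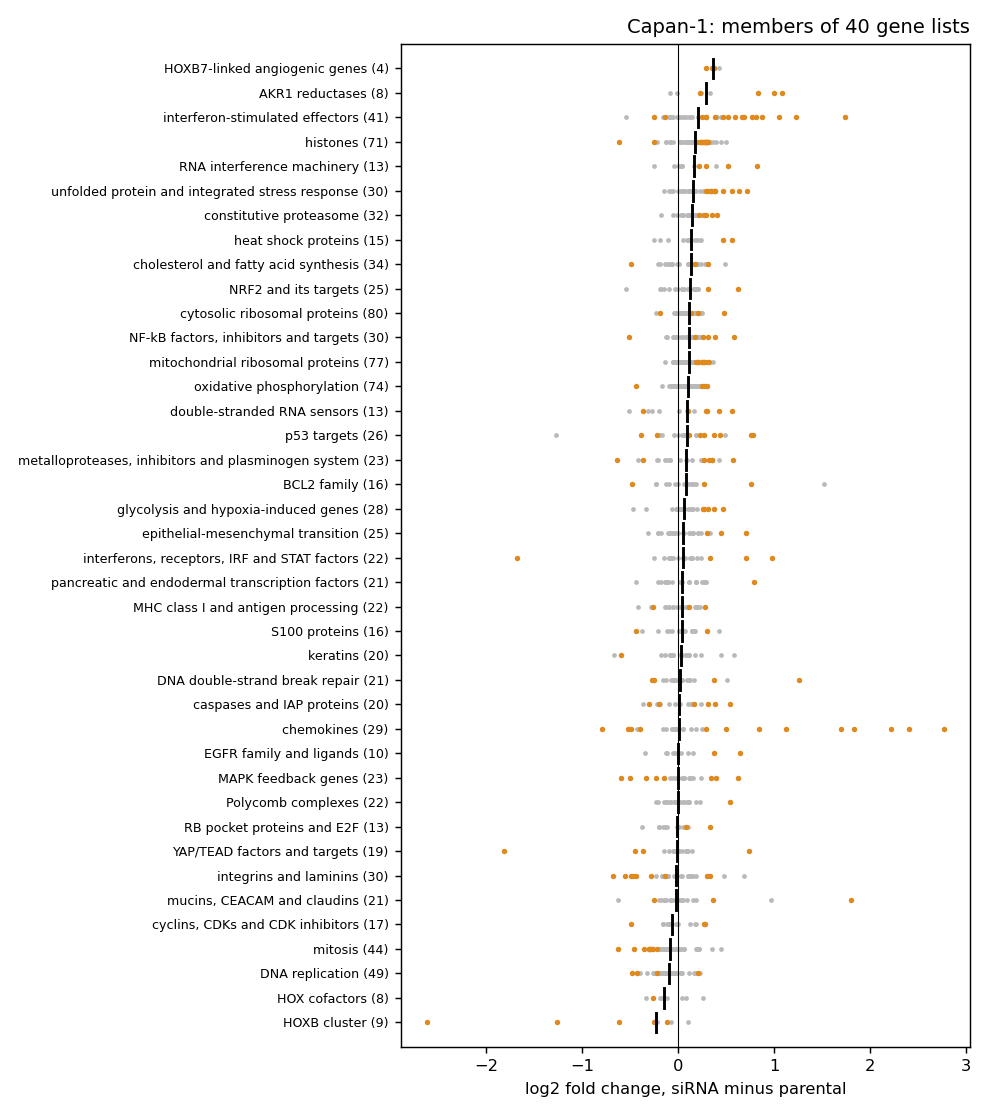
Log2 fold change (siRNA minus parental) of the tested members of 40 gene lists, 1 point per gene by its brightest probe, with orange for members nominally higher or lower by any of their probes, a black bar for the list's median and the number tested in brackets. The HOXB cluster has the lowest median, -0.23, and the angiogenic genes linked to HOXB7 the highest, 0.36, over 4 genes.

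Many of the largest differences rested on dim or uneven signals. Among the 15 largest in each direction of genes above background on all 4 arrays, others were SPTSSB, LOC441666, GNG2, SCARNA16 and LOC644990, between 1.17 and 1.52, and CLIC5, FLJ25006, CFAP92, LOC642587, QPCTL, LINC01124, IZUMO1R, EFL1, FRMD3 and 1 unnamed probe, between -1.55 and -1.01, with adjusted p-values of 0.2 or higher. Brighter probes of CLIC5, EFL1 and LOC441666 gave 0.05, 0.02 and 0.23. The small Cajal body RNA SCARNA16 read -1.57 and -3.62 with siRNA against -3.85 and -4.34, so the siRNA arrays differed more from each other than the parental arrays did. Above background on the siRNA arrays alone, LIG4, the ligase of DNA end joining, was 2.39-fold higher as fitted, which is no bound. BGN (biglycan), a matrix proteoglycan, read -0.45 and -0.69 with siRNA against -1.55 and -1.95 in parental cells (1.18, adjusted p = 0.251). The secreted protein MSMB gave 1.39. CBY3 was above background on the siRNA arrays alone and was at least 9.07-fold higher, but its siRNA arrays read -1.73 and -4.34, so the size varied widely between them.

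The response of Capan-1 was compared with that of MIA PaCa-2 by the difference of the 2 log2 fold changes. HOXB7 itself was lower in both lines, by 2.62 in Capan-1 and 3.32 in MIA PaCa-2 on the log2 scale, and the difference of 0.70 had an adjusted p of 0.538 in limma. In MIA PaCa-2 the probe was above background on neither siRNA array, so that value is a fitted one, and the bound was at least 2.85-fold lower. Of 37 interferon-stimulated effectors tested in both lines, 24 (64.9%) had the larger value in Capan-1, beside 49.4% of all 17458 genes tested in both, and of 19 chemokines 11 (57.9%). CCL3 gave 2.21 in Capan-1 and 0.27 in MIA PaCa-2, IFIT1 1.22 and -0.15, OASL 0.87 and -0.46, CCL5 1.13 and -0.36, and RSAD2 1.74 and 0.06. The adjusted p of these differences was 0.0909 for CCL3, IFIT1 and OASL, 0.0939 for CCL5 and 0.131 for RSAD2, so none passed. Other members had the larger value in MIA PaCa-2: IFI27, an interferon-induced mitochondrial protein, gave 0.21 in Capan-1 and 2.09 in MIA PaCa-2 (adjusted p of the difference 0.0858), IFI6 0.52 and 0.82, CXCL8 0.29 and 0.77, OAS3 -0.14 and 0.50 and IRF7 -0.08 and 0.78, and of these IFI27, IFI6 and CXCL8 were higher in MIA PaCa-2 at adjusted p-values of 0.00381, 0.0323 and 0.0304. Over all 25552 probes tested for this difference 2 passed (0.00783%). CXCL9, CXCL10 and CXCL11 were above background on 0 of the MIA PaCa-2 arrays, and the adjusted p of their differences was 0.193, 0.131 and 0.17.

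Other differences of the lines had adjusted p-values of 0.143 for ALPP, TGM1, PLAT, DDIT4 and DHX58 and 0.131 for SLC7A11, which was 0.30 in Capan-1 and -0.72 in MIA PaCa-2. DICER1 gave 0.82 and 0.70, HMOX1 0.63 and 0.45, BGN 1.18 and 1.28 and TNFAIP2 -0.51 and -0.52, with adjusted p-values for the difference between 0.651 and 0.99. These p-values do not show that the lines responded alike.

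**Figure D5:**
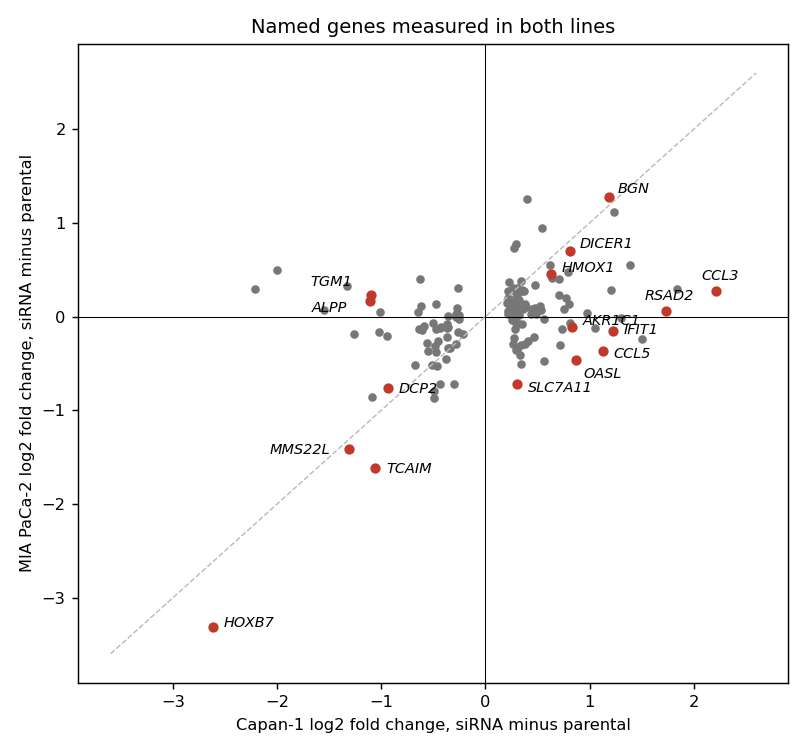
Log2 fold change (siRNA minus parental) in Capan-1 (horizontal) and MIA PaCa-2 (vertical) of the named genes tested in both lines, with equal values on the dashed line. MMS22L, DCP2, DICER1 and BGN lie within 0.18 of the dashed line, while CCL3, RSAD2, IFIT1, CCL5 and OASL lie between -0.46 and 0.27 in MIA PaCa-2; the genes were chosen on their Capan-1 values.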

How the data were processed

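RNA from 8 cell line samples, 2 per group, was hybridised to 1-colour Agilent 4x44K arrays. The authors scanned them and ran Agilent Feature Extraction 9.5.3, and deposited spot intensity (background-corrected, and the mean and background signals) together with a log2 table that equals log2 of the corrected intensity, with no scaling between arrays. Here, flagged outlier spots were dropped, spots of a probe averaged, log2 taken and each array's 75th percentile over 34127 gene probes subtracted. Probes were named through RefSeq accessions where these matched (24827), otherwise by other accessions, symbols or the file's own name (7499), giving 27248 genes, and probe positions are those of the files (hg18). limma 3.58.1 (R 4.3.3) fitted 4 group means over the 8 arrays, restricted to the probes tested, with Benjamini-Hochberg adjustment over 23376 probes. Gene calls needed 1 probe past the threshold and none the other way, and list medians used the brightest tested probe of each gene. A bound ("at least N-fold") sets the brighter group's mean against the dimmer group's, each dim array taken at its own signal or at the lowest signal well above background, whichever was higher. Where the dim arrays' own signals were the higher, as for HOXB8 and LIG4, the value equals the fitted fold and is no bound. Bounds hold only for the background correction used here. Depth does not apply to arrays, whose number limits the precision.

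The genes named were HOXB7, those past the adjusted threshold, the 15 largest differences each way among nominal genes above background on all 4 arrays, the 5 largest bounds each way, up to 5 nominal members of each of 40 lists and 6 marker lists, and regulators the study measured by other means. Named outside that rule, after their values were seen, were the genes past an adjusted p of 0.10 (DCP2, SLC8A1, LOC100131532), the other nominal chemokines and effectors (CCL2, CCL4, CCL17, CCL20, CXCL14, ISG15, ISG20, IFI44, IFI6, IFITM1, HERC5, HERC6, DDX60, GBP3, BST2, MX1, DTX3L), TBK1, and members that did not pass (OAS1 to OAS3, STAT2, IRF3, IRF7, TLR3, DROSHA, DGCR8, HOXB6, HOXB9, HOXB13, ITGB1, IFI27). A few genes that the rule names are not reported here. The comparison, the lists and the rule were set with earlier results of these data known. Test and code were tested on simulated data. Alternatives covered background correction, scaling, filters, the fit, leaving out each array and the rule of the study's methods, and 3 settings (an adjusted p under 0.10 and 2 ways to estimate the spread) were added after the data were seen. Replicate numbers did not pair the samples (correlation of same-numbered deviations 0.0275 in Capan-1).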

Additional observations from a re-analysis of the deposited data

Results flagged for a closer look

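The effect of the siRNA differed between the 2 lines, by limma's test of the difference, for 2 probes, both at background in some groups, so that the fitted sizes are no bounds. OR10R3P, an olfactory receptor pseudogene, differed by 2.72 on the log2 scale (SE 0.133, adjusted p = 0.0233): Capan-1 gave 0.56, with siRNA arrays at -4.88 and -5.06 and parental arrays, of which 1 was above background, at -5.55 and -5.51. In MIA PaCa-2 it was above background on 0 of 2 siRNA arrays and was at least 2.57-fold lower (fitted -2.16). LOC401098 differed by -4.89 (SE 0.304, adjusted p = 0.049). Of all 8 arrays only those of siRNA-treated MIA PaCa-2 read it above background, at -3.24 and -2.98, and it was tested through that group, where it was at least 7.68-fold higher (fitted 4.88).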

How the results depend on the processing

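Of 137 genes followed through up to 21 alternatives, 128 kept the direction of their difference in all of them. The exceptions were IFNB1 (0.017) and HOXB4 (0.014) with normexp background correction, SLC8A1 (2.22) and DGCR8 (-0.00354) with outlier spots kept, and, with 1 Capan-1 array left out, BAD (-0.13 to 0.063), BCL2 (-0.21 to 3.24), DGCR8 (-0.0436 to 0.0465), DROSHA (-0.028 to 0.11), OAS2 (-0.17 to 0.064) and STAT2 (-0.067 to 0.16). Directions are relative to all probes where a scaling moved their median. Of 40 list medians, taken relative to all genes, 24 kept their sign throughout. CCL3 passed the threshold in 11 of 21 alternatives, with adjusted p from 1.19e-05 to 0.406.

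Counts of genes lower and higher at an adjusted p under 0.05, which were 0 and 1, became 31 and 40 with normexp, 1 and 11 with quantile normalization, 7 and 5 with no scaling, 46 and 9 with spike-in scaling, 26 and 28 where the spread followed intensity, 0 and 2 for probes above background on all 4 arrays, and 119 and 168 by the methods' interval rule with single-probe genes allowed (0 and 10 with at least 2 probes). They were 0 and 0 with no filter on dim probes, with the 4 Capan-1 arrays alone, with the replicate block and with the spread estimated over all probes, and 5 and 10 at an adjusted p under 0.10. Leaving out 1 array gave 0 to 6 lower and 0 to 14 higher. The replicate block, whose numbers do not pair these samples, left 1241 lower and 996 higher at an unadjusted p. Nominal counts, 1537 lower and 1351 higher, were 5445 and 45 with spike-in scaling, had 221 higher with no scaling, and ranged from 833 to 1844 lower and 690 to 1774 higher with 1 array left out.

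HOXB7 passed the threshold with normexp (-0.66), no scaling (-2.77), spike-in scaling (-3.01) and a spread that followed intensity (-2.62), and lay between -2.84 and -2.39 with 1 array left out. Genes that differed between the lines, 2 in the reported fit, numbered 49 with normexp, 8 with quantile normalization, 4 with no scaling, 6 with spike-in scaling, 43 where the spread followed intensity, 1 with outlier spots kept and 0 with probes above background on all 4 arrays, with no filter, with the replicate block or with the spread over all probes, and 0 to 24 with 1 array left out. The causes were not tested. A dim probe's difference is limited by its signal over background.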
